A study of Mus musculus with 22 samples.

Results

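RNA fragments that carry N4-acetylcytidine (ac4C), an acetylated cytidine that NAT10 writes into RNA, were collected from mouse kidney by immunoprecipitation (IP) with an antibody against ac4C. The peaks described here are all rows of the deposited peak table that are named Eri2 or carry a gene name beginning with Acsm, which are 14 of 9857 peaks. They comprise 2 peaks of Eri2, 3 of Acsm1, 6 of Acsm2, 1 of Acsm3 and 2 of Acsm5, and the table holds 0 peaks named Acsm4. By their names, the 9857 peaks join those called in db/db kidney and those called in db/m kidney. Of the 14, 12 were called in db/m and 2, both inner rows of Acsm2, in db/db. The locus was chosen by the IP reads of the larger Eri2 peak, which were far fewer in db/db kidney. The values of that peak, and of the Acsm3 peak that overlaps it, are therefore a description without a test.

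The kidneys were those of 6 db/db animals, homozygous for a defect of the leptin receptor that brings on obesity and diabetes, and of 5 db/m animals, the heterozygous controls without diabetes. The study's methods describe male mice, and the age of the sequenced animals is not given in the sources used here. Each animal had an IP library and an RNA-seq library, so 22 libraries were compared, and the only labelled difference between the groups is the genotype. The IP libraries held 7577171 to 9862426 reads in peaks in db/db and 9125099 to 10293757 in db/m, and the RNA-seq libraries held 3160992 to 3352535 and 3151035 to 3265239. Levels are given as CPM, reads scaled to a fixed total of reads in peaks, with library sizes scaled by the TMM method. In whole kidney, fewer cells of a type and less RNA per cell cannot be told apart.

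The Acsm genes encode medium-chain acyl-CoA synthetases of the mitochondrial matrix. These enzymes join medium-chain fatty acids, and drug or diet acids such as benzoate, to coenzyme A, and the products are then oxidised or passed to glycine conjugation. They are best known in liver and in the proximal tubule of the kidney. Eri2 encodes a member of the ERI1 family of exoribonucleases, which trim RNA from its 3′ end, and it is not an acyl-CoA synthetase. Eri2 is grouped with the Acsm genes here because of where it lies.

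All 5 genes lie in a row on chromosome 7 (GRCm38), in the order Acsm5, Acsm2, Acsm1, Acsm3 and Eri2, over 267928 bases from the start of Acsm5 to the end of Eri2. Acsm4 and Thumpd1, which is not an Acsm gene, lie between Acsm1 and Acsm3. The 4 Acsm genes with peaks are on the plus strand and Eri2 is on the minus strand. In RefSeq, Acsm3 spans chr7:119760883-119784896 and Eri2 spans chr7:119783826-119794058, so that their ends face each other and overlap by 1071 bases. Both Eri2 peaks and the Acsm3 peak lie inside this overlap. The deposited table ties both Eri2 peaks to a transcript of the nonsense-mediated decay class and the Acsm3 peak to a protein-coding transcript. Strand was not used in the counting. Of 52 peak pairs that lie on opposite strands and overlap by at least 90%, 46 had read totals within 10% of each other. Reads in the overlap therefore cannot be divided between Eri2 and Acsm3. The exons of the genes were not analysed here.

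The promoter windows of Eri2 and its Acsm neighbours differed in their number of CG dinucleotides. RefSeq (GRCm38.p6) gave 6 promoter windows for the 5 genes, each reaching from 250 bases before the start site to 50 bases after it. The Eri2 window held 32 CG dinucleotides and 63.3% G and C, a CG count reached by 9.52% of the 32851 promoter windows of the mouse. The Acsm3 window held 7 CG, which is also the median of 7 over all windows, and the others held 1 (Acsm5), 1 and 4 (Acsm2) and 2 (Acsm1). The windows were searched on both strands for TATAAA (in 13.6% of all windows), TAATNATTA, the core of the site of the tubular factor HNF1 (0.618%), GGGCGG (35.7%) and AGAACA, a half-site of steroid receptors (19.0%). The first Acsm2 start held TATAAA and AGAACA, the second Acsm2 start held TAATNATTA and Eri2 held GGGCGG, while the windows of Acsm5, Acsm1 and Acsm3 held none of the 4. The next lines give stretches of 30 bases on the strand of the gene, at chr7:119554300-119554329 and chr7:119561643-119561672 for Acsm2, chr7:119760705-119760734 for Acsm3 and chr7:119794139-119794168 for Eri2. The Acsm2 stretches were picked for holding a match, and those of Acsm3 and Eri2 for the most CG before the start, so they do not represent their windows. Capitals mark TATAAA or TAATNATTA in Acsm2, and each CG in Acsm3 and Eri2.
Acsm2, first start: ttgtgtggtgtaTATAAAggacatggaaga
Acsm2, second start: tgtgcaccatTAATGATTAgctgagccctc
Acsm3: gagtgaggcatgtgtaagcccCGgattcCG
Eri2: CGctccctgaggCGCGtCGtgCGcagagCG
A match in these letters is a description of the window and not a site of binding.

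The larger Eri2 peak, chr7:119784245-119784425 (181 bases, minus strand), was almost emptied of reads in db/db kidney. In IP it held 2396, 1887, 1945, 2365 and 2393 reads in the 5 db/m mice, against 36 at the lowest, 156 at the median and 183 at the highest in the 6 db/db mice. As levels these were 236 ± 28.5 CPM in db/m (SD, n = 5) and 14.3 ± 6.14 CPM in db/db (SD, n = 6), a 16.4-fold difference (log2 -4.04, SE 0.29). Every db/db mouse lay far under every db/m mouse, and db/db animal 3 was the lowest of all.

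The RNA-seq libraries, which were not immunoprecipitated, showed the same peak low in db/db. They held 1625, 1662, 1265, 1677 and 1891 reads in db/m, and 16, 100.5 and 181 reads at the lowest, median and highest in db/db. The level was 519 ± 66.7 CPM in db/m and 30.7 ± 17.0 CPM in db/db, 16.9-fold apart (log2 -4.08, SE 0.34). The groups were again wide apart, with the highest db/db mouse at 54.2 CPM and the lowest db/m mouse at 414 CPM. Within db/db the levels spread from 4.57 to 54.2 CPM, so the db/db mice differed from each other by far more, in fold, than the db/m mice did.

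The Acsm3 peak, chr7:119784302-119784451 (150 bases, plus strand), shares 124 bases with the Eri2 peak. Its reads came to 18023 over all libraries against 20484 for the Eri2 peak, or 88.0% as many, so the pair is not 2 independent measurements. The IP level was 214 ± 30.4 CPM in db/m and 13.2 ± 5.96 CPM in db/db (log2 -4.02, SE 0.29), and the RNA-seq level was 438 ± 51.9 and 26.2 ± 14.4 CPM (log2 -4.06, SE 0.32). The plot of both overlapping peaks shows that each animal sat at nearly the same place in both.

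**Figure D1:**
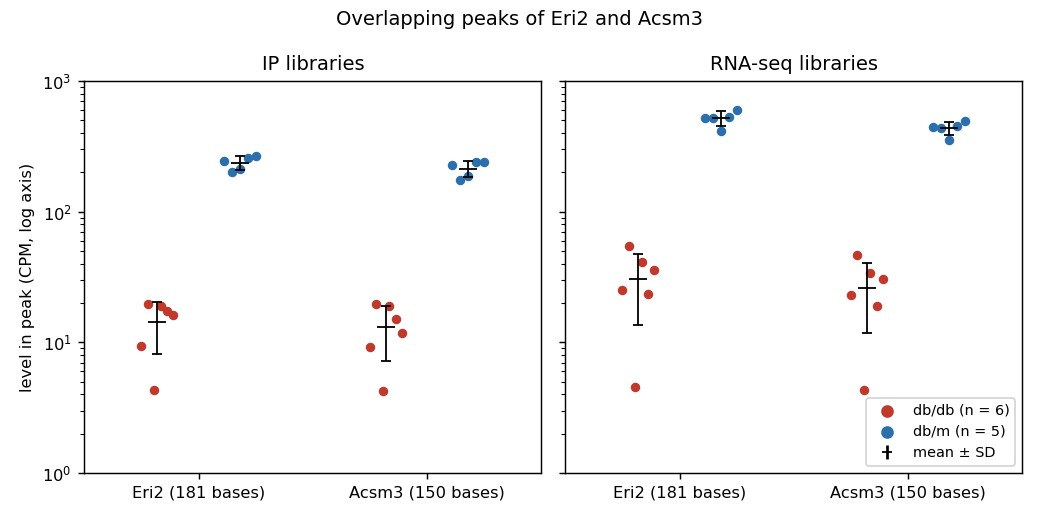
Level (CPM, log axis) of the overlapping Eri2 and Acsm3 peaks in the IP libraries (left) and the RNA-seq libraries (right). Points are animals, and black marks are the mean ± SD of 6 db/db (red) and 5 db/m (blue) mice. In both panels all db/db animals lie below all db/m animals, with means of 14.3 and 236 CPM for Eri2 in the IP libraries.

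The second Eri2 peak, chr7:119784065-119784125, is 61 bases long and lies 119 bases away from the first, within the same overlap, yet it carried almost no reads. The IP libraries held 1 read in all, in db/db animal 1, and 0 reads in every other library, where a count of 0 allows up to 3 reads or 0.305 to 0.362 CPM. This range covers counting error only. The RNA-seq libraries held 21 reads over the 6 db/db mice (6, 1, 4, 2, 4 and 4) and 6 over the 5 db/m mice (0, 1, 4, 1 and 0), that is 1.06 ± 0.528 and 0.389 ± 0.538 CPM. The genotypes overlapped, and the difference did not pass the test (log2 1.38, SE 0.68, adjusted p = 0.224 by edgeR's quasi-likelihood test). The deposited fold enrichment of this peak is 3.03, although its IP libraries are nearly empty. The fitted value had the opposite sign to that of the larger peak, and it was 2.48 (adjusted p = 0.0571 by edgeR) without db/m animal 3, which held 4 of the 6 control reads.

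Per length, the Acsm3 and Eri2 overlap stood level with Acsm1 in db/m kidney and below Acsm5 in db/db kidney. Levels between genes were compared as RNA-seq CPM per 100 bases over the peaks of at most 1000 bases other than the nearly empty 61-base Eri2 peak, without correction for reads that run over a peak's edge. In db/m the order was Acsm2 (671 ± 77.3 at chr7:119596071-119596461 and 453 ± 73.3 at chr7:119573599-119573719), Acsm1 (302 ± 43.8 at chr7:119662276-119662455), Acsm3 (292 ± 34.6), the larger Eri2 peak (287 ± 36.8) and Acsm5 (75.3 ± 4.62 at chr7:119542749-119542898). Acsm1, Acsm3 and Eri2 did not differ beyond their spread, the ranges of both Acsm2 peaks overlapped, and Acsm5 lay apart from all others. In db/db the order was Acsm2 (166 ± 62.5 and 124 ± 41.2), Acsm1 (99.7 ± 38.3), Acsm5 (47.0 ± 12.5), Acsm3 (17.5 ± 9.60) and Eri2 (16.9 ± 9.41). Among the db/db mice the ranges of each peak and the next in this order overlapped, down to Acsm5 (26.3 to 64.1) and Acsm3 (2.86 to 31.0).

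The other Acsm peaks, which share no reads with the peak that drew attention to the locus, were also lower in db/db mice. Of these 11 peaks, 10 were called lower in the IP reads (adjusted p under 0.05 and an absolute log2 fold change over 1), where 1.72% of all 9857 peaks were called lower. In the RNA-seq reads 9 of 11 were called lower, against 1.97% of all peaks. All 11 of them lay without overlap below db/m in IP level (2.99% of all peaks) and 10 of 11 in RNA-seq level (4.34%). The median log2 fold change of the 11 peaks was -1.71 for IP and -1.87 for RNA-seq, and the medians over all peaks were 0.00 and -0.01. Apart from the 2 inner rows of Acsm2, these peaks entered through peak calling in db/m kidney, where they are high. That filter favours lower calls and groups without overlap, and the shares over all peaks take in peaks called in either genotype. The shares are therefore not a like comparison. These peaks belong to 3 genes and some share reads, so they are not independent of each other. How reads that match more than 1 of these related genes were counted is not given in the sources used here.

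Acsm2 had the highest levels of the family and fell in all 6 of its peaks. The peak chr7:119596071-119596461 (391 bases) had IP levels of 6886, 5597, 6990, 8454 and 6597 CPM in db/m, and of 994, 2042 and 2822 CPM at the lowest, median and highest in db/db. The means were 6905 ± 1026 and 1948 ± 661 CPM (log2 -1.83, SE 0.21, adjusted p = 1.57e-05 by edgeR). The 2 groups did not overlap.

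The RNA-seq level of the same Acsm2 peak was 2693, 2093, 2808, 2706 and 2820 CPM in db/m, and 357, 675 and 1058 CPM at the lowest, median and highest in db/db. The means were 2624 ± 302 and 650 ± 244 CPM (log2 -2.01, SE 0.21, adjusted p = 2.85e-06 by edgeR). A second row of the table, chr7:119596101-119596431, lies within this peak and held 99.6% as many reads, and its log2 fold changes were the same to 2 decimals.

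The remaining Acsm2 peaks fell to a like extent. The long rows chr7:119563610-119573281 and chr7:119563640-119573251, of which one lies within the other, had log2 fold changes of -1.87 and -1.89 for IP and -1.96 and -1.95 for RNA-seq. The short peak chr7:119573599-119573719 had -1.93 and -1.87, and chr7:119580721-119582750 had -1.71 and -1.80. Over the 6 Acsm2 peaks the adjusted p by edgeR ran from 6.77e-06 to 8.45e-05 in IP reads and from 1.61e-06 to 2.92e-06 in RNA-seq reads. The log2 fold changes of the 6 peaks differed from each other by about the standard error of a single one.

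Acsm1, which prefers short and medium chains such as butyrate, fell in all 3 of its peaks. At chr7:119662276-119662455 the IP level was 246, 245, 301, 329 and 282 CPM in db/m and 53.0, 119 and 136 CPM at the lowest, median and highest in db/db (log2 -1.39, SE 0.20, adjusted p = 0.000177 by edgeR). The RNA-seq level there was 544 ± 78.8 and 179 ± 69.0 CPM (log2 -1.60, SE 0.22, adjusted p = 7.33e-05 by edgeR). Neither level overlapped between the genotypes. The longer peaks chr7:119622671-119633193 and chr7:119658339-119660614 had log2 fold changes of -1.67 and -1.55 for IP and of -1.89 and -1.58 for RNA-seq.

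Acsm5, at the far end of the row from Eri2, had smaller differences at lower levels. At chr7:119528636-119530474 the IP level was 42.0, 44.6, 27.3, 36.3 and 35.7 CPM in db/m and 9.98, 17.2 and 26.4 CPM at the lowest, median and highest in db/db. It fell in IP reads (log2 -1.15, SE 0.24, adjusted p = 0.00643 by edgeR). Its RNA-seq level, 43.5 ± 11.4 against 25.3 ± 7.14 CPM, overlapped between the genotypes and was lower by less than the threshold of fold (log2 -0.78, SE 0.20, adjusted p = 0.0158 by edgeR).

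At the other Acsm5 peak, chr7:119542749-119542898, the IP level was 51.4 ± 6.18 CPM in db/m and 33.3 ± 9.31 in db/db, and the difference did not pass the test (log2 -0.63, SE 0.21, adjusted p = 0.0879 by edgeR). DESeq2 gave an adjusted p of 0.0341 for it, at a log2 fold change of -0.63 that is under the fold threshold. The highest db/db mouse, at 45.3 CPM, was just under the lowest db/m mouse, at 45.6 CPM. In RNA-seq reads the same peak was lower at any fold but not over the fold threshold (113 ± 6.93 and 70.4 ± 18.7 CPM, log2 -0.68, SE 0.17, adjusted p = 0.0101 by edgeR). The difference in size of effect between Acsm5 and the other genes was not itself tested.

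**Figure D2:**
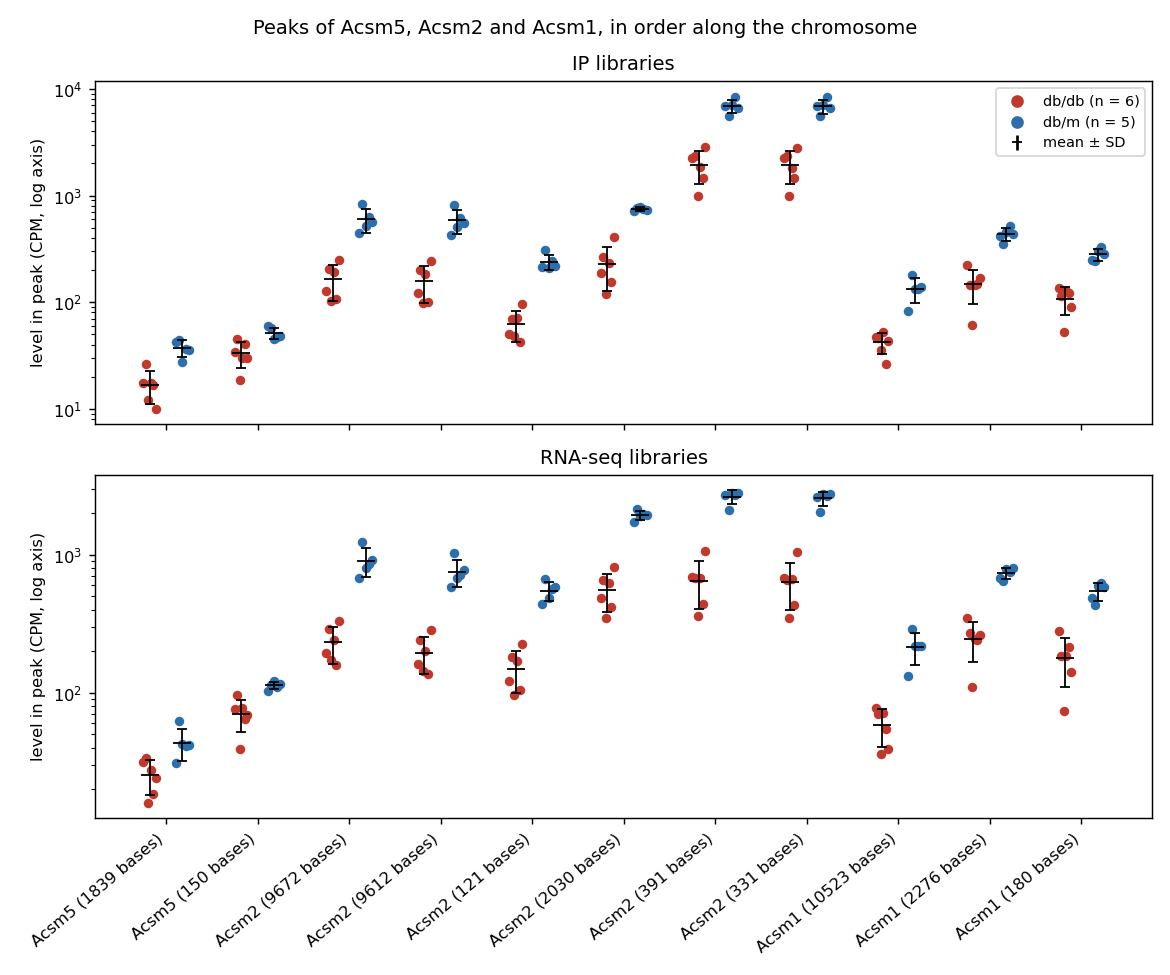
Level (CPM, log axis) of the 11 peaks of Acsm5, Acsm2 and Acsm1, from left to right as they lie on the chromosome, in IP libraries (top) and RNA-seq libraries (bottom). Points are animals and black marks are the mean ± SD of 6 db/db and 5 db/m mice. The genotypes overlap only at the 1839-base Acsm5 peak in the RNA-seq libraries, and Acsm2 reaches 6905 CPM in the db/m IP libraries.

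The db/db animals kept part of an order over these peaks. Animal 3 was the lowest of the 6 db/db mice in 8 of the 11 IP levels and in 9 of the 11 RNA-seq levels, and animal 6 was the highest in 6 and in 6. In both library types these 6 are the Acsm2 rows, some of which share their reads. Animal 6 was the highest at no Acsm1 or Acsm5 peak. At Acsm5 chr7:119528636-119530474 it was the lowest in IP level, at 9.98 CPM. Animal 3 was also the lowest at the overlap of Eri2 and Acsm3, but there animal 2 was the highest. The order is a description, since peaks of one animal share its libraries.

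Relative to the RNA-seq level, the IP level of these peaks was close between the genotypes, and no relative change passed the test. The ratio of IP to RNA-seq level of an animal averaged 0.557 ± 0.234 in db/db and 0.458 ± 0.0498 in db/m at the larger Eri2 peak, with db/db animal 3 highest at 0.946 on its 36 and 16 reads. Taken over the RNA-seq reads of the same animals, the log2 change in IP reads was 0.08 (SE 0.13) there and 0.08 (SE 0.14) at the Acsm3 peak. For the 11 other Acsm peaks it lay between -0.38 and 0.25, with standard errors of 0.06 to 0.22 and a median of 0.07 against 0.02 over all peaks. None of the 14 peaks was called in this comparison by edgeR, in which 0.0203% of all peaks were called, 0 were called by DESeq2, and 3 of the 14 had an unadjusted p under 0.05.

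One Acsm2 peak was the exception in how strongly it was pulled down, in both genotypes. At chr7:119596071-119596461 the ratio of IP to RNA-seq level was 3.02 ± 0.344 in db/db and 2.64 ± 0.298 in db/m, whereas the mean ratios of the other peaks ran from 0.386 to 0.895, leaving out its inner row and the nearly empty small Eri2 peak. This peak lies in the same gene as chr7:119580721-119582750, where the ratio was 0.396 ± 0.0542 in db/db and 0.387 ± 0.0243 in db/m. The difference between the genotypes at the strongly pulled-down peak was small and did not pass the test (log2 0.21, SE 0.06, adjusted p = 0.253 by edgeR, and 0.0470 to 0.645 when 1 animal was left out, the lowest without db/m animal 4). The deposited fold enrichments of the 14 peaks were 1.3 to 12.6, and the median over all peaks was 5.09. Since IP and RNA-seq levels are each scaled to their own reads in peaks, a ratio under 1 need not be a depletion by the antibody.

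**Figure D3:**
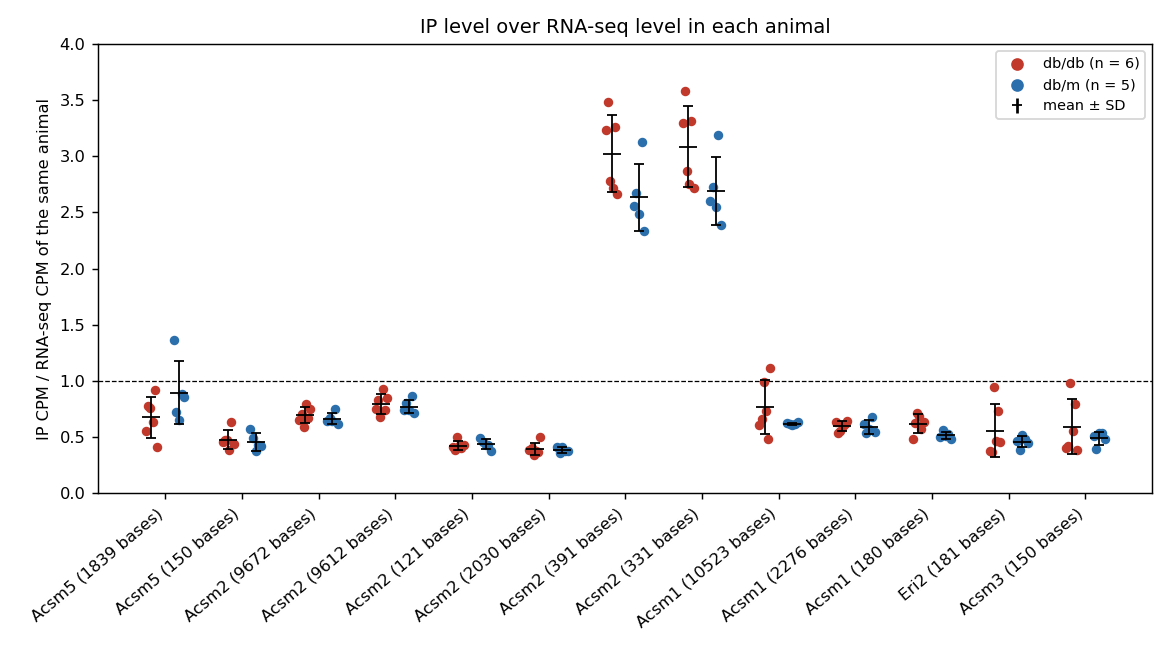
Ratio of IP level to RNA-seq level of the same animal for each peak with reads in both library types. Points are animals, black marks are the mean ± SD of 6 db/db and 5 db/m mice, and the dashed line is a ratio of 1. Each level is scaled to its own reads in peaks, so this line does not mark the absence of enrichment. The 2 nested Acsm2 rows stand near 3, at 3.02 and 2.64 for the longer row, and the means of the others lie under 1 in both genotypes.

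The other genes near the cluster have few peaks. Within 420 kb of the larger Eri2 peak the table holds 10 peaks of 5 other genes, and 0 of them were called in IP or in RNA-seq reads, where 3.32% and 3.95% of all peaks were called in either direction. With 10 peaks, 0 calls is near that background. The 9 with at least 50 IP reads had log2 fold changes of -0.92 to 0.63 in IP reads and of -0.22 to 0.78 in RNA-seq reads. Gm19950, an antisense transcript between Acsm2 and Acsm1 that was picked out after its values were seen, had 113 ± 34.5 CPM in db/db and 73.4 ± 47.1 in db/m in IP reads (log2 0.63, SE 0.32, adjusted p = 0.265 by edgeR). In RNA-seq reads it was 290 ± 99.0 against 169 ± 77.6 CPM (log2 0.78, SE 0.24, adjusted p = 0.0446 by edgeR), higher in db/db by less than the fold threshold. Both values were opposite in sign to those of the Acsm genes on either side. The list of 20 neighbouring genes, which also takes in Knop1 beyond this distance, had 5 genes with 11 peaks, and 0 were called.

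**Figure D4:**
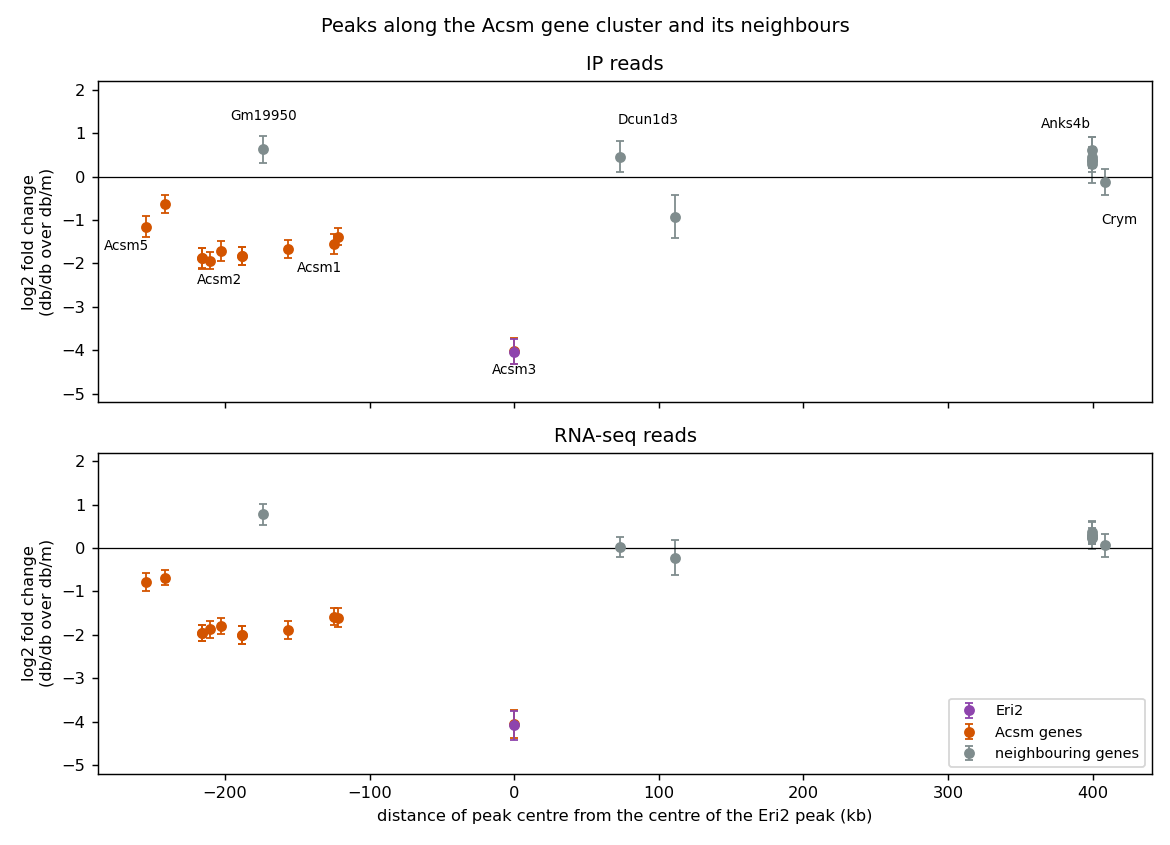
Log2 fold change (db/db over db/m) ± SE of each peak with at least 50 IP reads, by distance of its centre from the centre of the larger Eri2 peak, in IP reads (top) and RNA-seq reads (bottom). The peaks of Acsm5, Acsm2, Acsm1, Acsm3 and Eri2 all lie below 0, from -0.63 to -4.04 in IP reads, and the other genes' peaks lie between -0.92 and 0.63.

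Other enzymes of fatty acid activation and oxidation were compared by lists. In these and the marker lists, rows called in db/db and in db/m kidney that overlap or repeat each other were counted and summed separately. Their counts are therefore not of independent peaks. Of 19 acyl-CoA synthetases of other families, 6 had peaks, and of their 14 peaks 1 was called higher and 0 lower in IP and in RNA-seq reads. Of all peaks 1.59% and 1.98% were called higher and 1.72% and 1.97% lower, so the absence of lower calls in so short a list is near the background. The one called is in Acsl1, the long-chain synthetase, at 49.7 ± 11.2 CPM in db/db and 12.5 ± 4.40 in db/m (IP log2 1.99, SE 0.26, adjusted p = 5.37e-05 by edgeR). This peak was called in db/db kidney, the genotype where it is high, and that filter favours a higher call. The median of the 14 peaks was nevertheless below 0, at -0.47 in IP and -0.59 in RNA-seq reads, and 8 of them were lower in RNA-seq reads at any fold, where 5.93% of all peaks were. These 8 are rows of Slc27a2, Acss2, Aacs and Acsf3, some of which share their reads.

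Of 21 genes of mitochondrial beta-oxidation 11 had peaks, 23 in all. In IP reads 3 of these were called higher (1.59% of all peaks) and 0 lower. They are 2 rows of Eci1, an enoyl-CoA isomerase (both log2 1.56), and 1 peak of Acadvl, the very-long-chain acyl-CoA dehydrogenase (log2 1.17, SE 0.18). The Eci1 rows share most of their reads. This Acadvl peak was called in db/db kidney, the genotype where it is high, and that filter favours a higher call. In RNA-seq reads 2 of the 23, the Eci1 rows, were called higher (1.98% of all peaks) and 0 lower. At any fold 9 of the 23 were higher in IP reads (3.07% of all peaks) and 13 in RNA-seq reads (5.34%), where 2 rows of Acadm, the medium-chain acyl-CoA dehydrogenase, were lower (log2 -0.43 and -0.44). The median log2 fold change of the 23 peaks was 0.39 in IP and 0.44 in RNA-seq reads.

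Glycine conjugation of acyl-CoA, the step after Acsm for acids such as benzoate, was seen at 1 of 4 genes only, Glyat. Its identical rows had log2 fold changes of -0.12 in IP reads (adjusted p = 0.824 by edgeR) and -0.16 in RNA-seq reads (adjusted p = 0.592 by edgeR). Of 16 exonucleases related to Eri2, 5 had peaks, and 0 of these 6 peaks were called in either library type.

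Some markers of the proximal tubule, where Acsm genes are used, were also lower in db/db. Of 15 proximal tubule markers 10 had peaks, 25 in all, of which 3 (IP) and 5 (RNA-seq) were called lower and 0 higher, against 1.72% and 1.97% of all peaks called lower, with medians of -0.45 and -0.56. The IP calls were 2 peaks of Slc7a13 and 1 of Slc22a7, both transporters, and in RNA-seq reads 2 rows of Slc34a1, the phosphate transporter, were added. At any fold 9 (IP) and 11 (RNA-seq) of the 25 were lower and 0 higher, where 5.93% of all peaks were lower in RNA-seq reads. The matching share in IP reads was not worked out, so the IP count has no background beside it. Below the fold threshold, IP reads were lower at Lrp2 (log2 -0.92 and -0.86), Slc34a1 (-0.98 and -0.97) and Slc22a6 (-0.63). The peaks of Hnf4a, Aqp1 and Slc5a2 did not pass the test in either library type. The summed IP level of all 25 peaks was 2049 to 3845 CPM in db/db and 3868 to 4672 in db/m, without overlap, and the summed RNA-seq level was 3488 to 6652 and 6542 to 7517, with overlap. Of 7 genes known to depend on androgen in mouse kidney, 4 had peaks (Cyp2j13, Slc7a13, Slco1a1 and Odc1), and 6 of 6 peaks were called lower in both library types (1.72% and 1.97% of all peaks), with medians of -3.31 in IP and -3.42 in RNA-seq reads. Their summed IP level was 43.8 to 361 CPM in db/db and 1246 to 1482 in db/m. All 6 of these peaks, and the peaks of Slc22a7 and Lrp2, were called in db/m kidney, the genotype where they are high. The Slc13a3 peaks that were lower at any fold in RNA-seq reads were called there too. That filter favours lower calls, so the shares of all peaks are not a like comparison. The part of either marker list in the Acsm differences was not tested.

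Among markers of other cells 1 peak was called, and endothelial Plvap was higher by less than the fold threshold. Of the loop of Henle, 1 of 4 markers had peaks and 0 were called. The collecting duct had 3 of 6, with 1 peak called higher, in Aqp2 (IP log2 1.56, SE 0.27), where 1.59% of all peaks were called higher in IP reads. The Aqp2 peak was called in db/db kidney, the genotype where it is high, and that filter favours a higher call. The podocyte had 4 of 5, with 0 called. The endothelium had 3 of 5, with 7 peaks and 0 called, but at any fold 4 of the 7, all rows of Plvap, were higher in IP and in RNA-seq reads (3.07% and 5.34% of all peaks), with list medians of 0.56 and 0.80. The highest Plvap value was a log2 fold change of 0.86 in IP (SE 0.16, adjusted p = 0.00270 by edgeR) and 0.97 in RNA-seq reads (SE 0.15, adjusted p = 0.000183 by edgeR). The part of these cells in the Acsm differences was not tested. The adipocyte had 2 of 4, at summed IP levels of at most 2.42 CPM. The lists for the distal convoluted tubule, leukocyte and liver had 0 peaks, so the table does not measure them, and Slc7a13 stands on both the proximal tubule and the androgen list.

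Peaks of other genes were ranked by how closely they followed the IP level of the larger Eri2 peak, the level by which the locus was chosen. Among 6876 peaks with a mean of at least 50 IP reads that overlap no Eri2 or Acsm peak, the highest Pearson correlations of log2(CPM + 1) over the 11 IP libraries were with 2 peaks of Acat1 (0.98 and 0.98), which encodes mitochondrial acetoacetyl-CoA thiolase, 2 of Mpv17l (0.98 and 0.98) and 1 of Evc (0.97). The first Acat1 peak, chr9:53594737-53598093, had 57.5 ± 8.67 CPM in db/db and 140 ± 10.8 in db/m. These correlations rest mostly on the 2 genotypes. With each animal taken as its deviation from its genotype mean they were 0.71 and 0.56 for Acat1, 0.59 and 0.58 for Mpv17l and 0.65 for Evc. Among the 6876 peaks these ranked only 151 and 509, 412 and 430, and 266. The closest peak was then in Vwa1 (0.96), followed by a peak of Csad (0.94), with an IP log2 fold change of -0.54. A peak of Otulin came next (0.90), although its IP log2 fold change was -0.20. The 11 other Acsm peaks had correlations of 0.83 to 0.96 over the 11 libraries, and these are given as a description over animals that share the genotype difference. As deviations from the genotype mean, their correlations ran from 0.06 (Acsm1 chr7:119622671-119633193) to 0.73 (Acsm5 chr7:119542749-119542898).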

How the data were processed

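Sample titles gave the genotype, animal number and type (IP or RNA-seq) of each kidney library. The authors deposited 1 table of 9857 ac4C peaks with raw read counts per peak and library, aligned to GRCm38 per the submitters' processing notes. The aligner, peak caller and counting tool are not given in the sources used here, nor is how reads that match several Acsm paralogs were counted. The deposited fold enrichment (a linear ratio of IP over RNA-seq) and the deposited FDR, an adjusted p-value of the peak caller, served only to describe peaks. Columns with the authors' own comparison of the genotypes (a log2 change with its p-values) were not used. Positions are counted from 1, since the deposited start plus 1 matched a RefSeq gene start in 103 peaks and the start as given in 8.

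Tests of the counts ran in edgeR 4.0.16 under R 4.3.3 (TMM, glmQLFit, glmQLFTest), separately for IP and RNA-seq libraries with genotype as the only term, and for IP relative to RNA-seq reads as an interaction over 22 libraries and animals as a further term. These fits had biological coefficients of variation of 0.356, 0.196 and 0.117. In the relative fit all peaks shared 1 trend of spread. p-values were adjusted (Benjamini-Hochberg) over all 9857 peaks without a filter, and a peak was called at an adjusted p under 0.05 and an absolute log2 fold change over 1. Two-sided exact permutation tests over the 462 splits of 11 animals into 6 and 5 cannot give less than p = 0.00216, which 8 of the 11 tested Acsm peaks reached in IP level. Python 3.11.15 with numpy 2.4.6, scipy 1.17.1, pandas 2.3.3 and matplotlib 3.10.9 was used for summaries. On simulated data with 200 of 9857 peaks changed by an absolute log2 of 2, 157 were recovered in IP, 154 in RNA-seq and 141 in relative reads, and of the 9657 unchanged peaks 7, 0 and 0 were called. Counting limits (3 reads for a count of 0) ignore PCR copies.

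Named were all Eri2 and Acsm peaks, list members called in either library type (at most 5 a list), chromosome 7 neighbours and the 5 peaks most like the larger Eri2 peak. The members and lists were chosen with earlier results of these data known. Titles number the animals but do not say how they were raised, so p-values measure the spread between these animals. In 50 pairs of replicate libraries the counts differed by more than sampling noise (chi-square per degree of freedom at least 3.60). Alternatives were no TMM, a minimum mean of 10 reads, no fold threshold, DESeq2 1.42.0, a replicate block and leaving out each animal.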

Additional observations from a re-analysis of the deposited data

Results flagged for a closer look

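Of 56 groups of animals tested for a single distant value (14 peaks, 2 library types and 2 genotypes) 4 were picked out at the 95% level, where chance gives 2.8. In the RNA-seq libraries db/m animal 2 was apart from the other controls at both nested Acsm2 rows, with 2093.2 CPM at chr7:119596071-119596461 against 2692.8 to 2820.3 CPM, and 2048.1 CPM at chr7:119596101-119596431 against 2640.8 to 2754.7 CPM. These rows share nearly all of their reads and count as one observation. At the small Eri2 peak, chr7:119784065-119784125, the IP level of db/db animal 1 was 0.12082 CPM, which is its 1 read, against 0 in the others. At the same peak the RNA-seq level of db/m animal 3 was 1.3086 CPM, from 4 reads, against 0 to 0.31908 CPM in the other controls. Both rest on counts near the limit that a count of 0 allows.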

How the results depend on the processing

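Of the 11 Acsm peaks free of the chosen reads, 10 (IP) and 9 (RNA-seq) were called lower in each of 16 settings run, leaving out each animal included, and 0 were called in relative reads. Without a fold threshold 11 of 11 passed in RNA-seq reads. Acsm5 chr7:119542749-119542898 was called in none of the 16 settings in IP reads, with adjusted p from 0.0341 (DESeq2) to 0.176. The animal numbers that both genotypes share do not pair the animals, since deviations of same-numbered animals correlated at -0.25 to 0.21 in IP and -0.40 to 0.51 in RNA-seq libraries, and 1 of 5 (IP) and 2 of 5 (RNA-seq) db/db animals were closest to their own number. With a replicate block 12 peaks were called in IP and 11 in RNA-seq reads, as without it, both counts including the 2 peaks that the selection fixed, and without the animal term 0 were called in relative reads. The larger Eri2 peak had log2 fold changes of -4.15 to -3.85 in IP reads and of -4.32 to -3.84 in RNA-seq reads when 1 animal was left out. The relative change at that peak ran from -0.0467 (without db/db animal 5) to 0.1937, and at the Acsm3 peak from -0.0498 (without db/db animal 5) to 0.173, so its sign was not stable. Among the peaks free of the chosen reads, a small value changed sign in 3 fits and became 0 in 1. The relative change at Acsm5 chr7:119542749-119542898 ran from -0.0236 (without db/db animal 5) to 0.1473, with -0.0029 without db/m animal 3, and that at Acsm2 chr7:119580721-119582750 ran from -0.0243 (without db/db animal 6) to 0.0689. The fitted IP value of the small Eri2 peak ran from 0.0 (without db/db animal 1, whose single read is the only one there) to 1.4323, and it is no measure of a change. Its RNA-seq value ran from 1.0785 to 2.475 (without db/m animal 3). Depth limits the db/db values of the larger Eri2 peak, which rest on 16 to 183 reads a library, and the small Eri2 peak, which has too few reads for any fold in IP. Reads of Eri2 and Acsm3 could not be separated under any alternative.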
